A study of Homo sapiens with 3 samples.

Results

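The TAM library was set against the untreated library gene by gene, for every gene with at least 10 counts in either of these libraries. This left 16079 of the 51136 genes in the count table, or 31.4%, and they held 99.8% of the untreated counts and 99.9% of the TAM counts. PANC-1, an established human pancreatic ductal adenocarcinoma cell line with epithelial and mesenchymal traits, was profiled by RNA-seq in 3 libraries. The untreated cells received no agent, and the labels name no vehicle. The TAM cells received 50 uM tamoxifen for 24 h. A library from cells given 200 uM ginsenoside Rg3, a plant saponin, for 24 h is quoted beside the leading genes only as a second treated culture. Each condition has 1 library, and whether it pooled several cultures is not given in the sources used here. No difference below therefore has a replicate check.

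Tamoxifen is best known as a selective estrogen receptor modulator in breast cancer. It also inhibits protein kinase C (PKC), which is the use made of it in this study, and it binds the sterol isomerase EBP of late cholesterol synthesis. As a cationic amphiphilic drug it collects in acidic organelles such as lysosomes. The comparison addresses which transcripts differed in pancreatic cancer cells that had been exposed to the drug.

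The libraries held 11300766 counts (untreated), 12861693 (Rg3) and 11321442 (TAM). The fold of a gene is its count in the TAM library over that in the untreated library after TMM scaling, given as a log2 fold change. Its 95% interval is the exact (Clopper-Pearson) interval of the share of reads and covers counting error only, not the spread between cultures. A gene was called higher when its fold was over 1.5, or lower when it was under 0.67, with an interval that excluded no change, and "rose" and "fell" refer below to such genes in these libraries. Counts under 3 were raised to 3 before a fold was taken. Where 3 counts follow a gene name, they stand in the order untreated, Rg3, TAM. In whole cultures, fewer cells of a type and less RNA per cell cannot be told apart.

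Markers of the cell line were present in both libraries. The keratin genes KRT8 (15329, 7817 and 14411 counts) and KRT18 (11216, 7406 and 13162) and the mesenchymal intermediate filament gene VIM (55276, 39783 and 42048) were among the abundant transcripts. KRT19, a ductal keratin, had 665, 290 and 181 counts and was lower in the TAM library by a log2 fold change of -1.67 (95% interval -1.92 to -1.43). All 10 acinar and islet markers, such as PRSS1, AMY2A, INS and GCG, were at 0 in all 3 libraries. The 13 markers of fibroblasts, endothelial cells and leukocytes had 0 to 4 counts, apart from CD14, a lipopolysaccharide co-receptor, with 97, 46 and 37 counts.

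In all, 2322 genes were called higher, 14.4% of the genes compared, and 3059 were called lower, 19.0%. A further 1241 genes passed 1.5-fold with an interval that included no change. Of the called genes, 746 rose and 1555 fell by more than 2-fold, and 137 rose and 210 fell by more than 4-fold. The median log2 fold change over all genes compared was -0.02, and the 10th and 90th percentiles were -1.06 and 0.79. Scaling by library totals lowered every log2 fold change by 0.21, so that 1176 genes (7.31%) were called higher and 4415 (27.5%) lower. The balance of higher against lower calls therefore depended on the scaling. TMM scaling sets the bulk of genes near no change, and absolute RNA amounts per cell were not measured.

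Fold changes followed the base composition and the length of the transcripts. Over 14744 genes with a GENCODE transcript, the log2 fold change rose with GC content (Spearman's rho across genes, 0.44) and fell with transcript length (rho -0.36). Genes are not independent replicates, and these values describe the pair of libraries. In the fifth of genes with the lowest GC content (at most 41.4%), 39.8% were called lower and 2.71% higher, and the median was -0.52. In the fifth with the highest GC content (at least 58.1%), 7.70% were called lower and 30.7% higher, and the median was 0.38. Of the genes with the longest transcripts (5592 bases or more), 45.0% were called lower. Long transcripts of low GC content had a median of -0.82 and short ones of high GC content 0.57. Genes of the lowest GC class took 6.86% of the untreated counts, 11.9% of the Rg3 counts and 4.76% of the TAM counts. With 1 library a side, treatment and library preparation cannot be told apart as the source of this gradient.

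**Figure D1:**
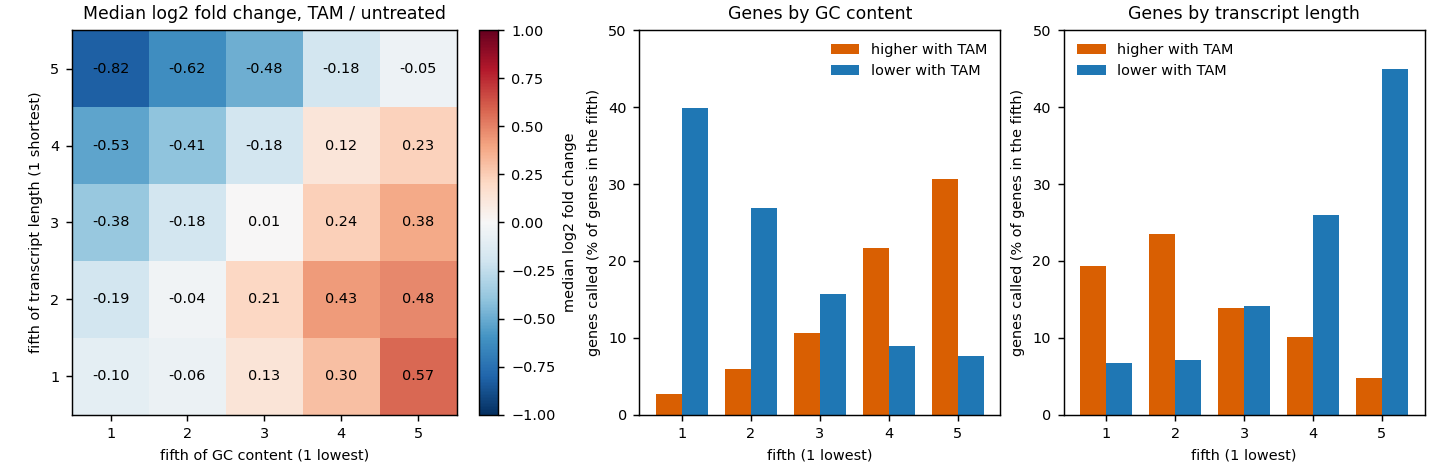
Median log2 fold change (TAM over untreated) in 25 classes made from 5 equal-sized groups each of GC content and transcript length (left, colour scale from -1 to 1), and the percentage of genes called higher (orange) or lower (blue) in each class of GC content (middle) and of length (right). Medians run from -0.82 for long transcripts of low GC content to 0.57 for short ones of high GC content.

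Stretches of coding sequence from 6 leading genes illustrate transcripts of low and of high GC content. Each is the central 120 bases of the longest coding exon of the gene's longest GENCODE 29 transcript, read 5′ to 3′ on the coding strand (build GRCh38), with G and C in capitals. PIK3C2A (chr11:17169150-17169269, minus strand) and VPS13A (chr9:77339654-77339773, plus strand) stand for long transcripts of low GC content that fell. ANGPTL4 (chr19:8364421-8364540, plus strand) and CHAC1 (chr15:40955513-40955632, plus strand) stand for short transcripts of high GC content that rose. COL5A1 (chr9:134824668-134824787, plus strand), which fell, and LIMCH1 (chr4:41646630-41646749, plus strand), which rose, are a GC-rich and a GC-poor transcript that moved the other way from most called genes of their GC content.
PIK3C2A: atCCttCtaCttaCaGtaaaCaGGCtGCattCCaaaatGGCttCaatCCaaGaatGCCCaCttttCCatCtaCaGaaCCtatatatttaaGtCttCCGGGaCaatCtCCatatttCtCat
VPS13A: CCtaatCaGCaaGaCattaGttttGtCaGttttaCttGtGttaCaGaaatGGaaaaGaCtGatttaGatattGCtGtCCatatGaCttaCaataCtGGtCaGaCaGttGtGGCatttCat
ANGPTL4: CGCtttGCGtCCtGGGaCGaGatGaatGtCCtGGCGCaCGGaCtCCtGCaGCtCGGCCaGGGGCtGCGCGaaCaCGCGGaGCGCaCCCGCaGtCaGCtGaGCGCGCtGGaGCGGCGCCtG
CHAC1: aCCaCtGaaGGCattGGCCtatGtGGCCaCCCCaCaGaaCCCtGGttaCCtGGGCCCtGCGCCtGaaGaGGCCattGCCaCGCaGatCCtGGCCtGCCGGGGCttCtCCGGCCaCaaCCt
COL5A1: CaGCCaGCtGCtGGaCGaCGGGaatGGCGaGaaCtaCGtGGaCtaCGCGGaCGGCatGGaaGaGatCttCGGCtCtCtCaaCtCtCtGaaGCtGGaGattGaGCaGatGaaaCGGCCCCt
LIMCH1: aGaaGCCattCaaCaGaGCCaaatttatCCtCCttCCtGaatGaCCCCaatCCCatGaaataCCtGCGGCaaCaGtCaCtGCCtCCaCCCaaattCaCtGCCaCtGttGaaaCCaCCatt
The share of G and C in these stretches was 38.3% in PIK3C2A, 35.0% in VPS13A, 70.8% in ANGPTL4, 64.2% in CHAC1, 57.5% in COL5A1 and 47.5% in LIMCH1. Over the whole transcripts it was 37.1%, 37.0%, 63.3%, 62.6%, 60.3% and 43.4%, with lengths of 8227, 15320, 1879, 1849, 8471 and 6165 bases.

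A smooth trend of the log2 fold change on GC content and log2 length was therefore taken off as a second reading of every gene. It accounted for 39.1% of the variance among genes with at least 200 counts in the 2 libraries together. With the trend removed, 1436 genes were called higher (9.74%) and 1964 lower (13.3%). Of the 2111 genes called higher that had a transcript, 904 (42.8%) were also called higher with the trend removed, and of the 2920 called lower, 1522 (52.1%) were also called lower. Both values are given below for some genes, and a gene whose call was lost with the trend removed is named as such. A value that stands alone is the TMM-scaled one and may also change with the trend removed.

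The leading increases were chosen to hold by both readings and under library totals. HS3ST1, a sulfotransferase that builds the antithrombin-binding site of heparan sulfate (chr4:11393150-11429765), had 12, 16 and 159 counts, a log2 fold change of 3.93 (95% interval 3.09 to 4.92) and 4.45 with the trend removed. Its level in the untreated library was near that in the Rg3 library, and the TAM library stood apart. CALB2, the cytosolic calcium buffer calretinin (chr16:71358713-71390438), had 12, 7 and 129 counts and rose by 3.63 (2.78 to 4.62). RAB17, a small GTPase of epithelial membrane traffic, had 38, 48 and 288 counts and rose by 3.13. CCL2, the chemokine that recruits monocytes (chr17:34255218-34257203), had 135, 249 and 964 counts and rose by 3.04 (2.78 to 3.31), and by 3.02 with the trend removed. It was the leading gene with the most reads after ANGPTL4.

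ANGPTL4, a secreted inhibitor of lipoprotein lipase, rose from 1367 counts untreated to 4954 with TAM, against 1480 with Rg3, a log2 fold change of 2.06 (1.98 to 2.15). CHAC1, which degrades glutathione, had 118, 242 and 453 counts and rose by 2.15. KCNIP3, a calcium-binding regulator of transcription and potassium channels, had 72, 45 and 410 counts and rose by 2.72. DHRS2, a short-chain dehydrogenase of mitochondria, rose by 3.01, PRSS3, mesotrypsin, by 2.20, and LIMCH1, an activator of non-muscle myosin, by 2.42. The other leading increases were TMEM171, PSD4, TMEM132E and the noncoding transcripts LINC00941 and WFDC21P, at log2 fold changes of 2.92, 2.46, 2.39, 2.17 and 2.04. For RAB17, PSD4, PRSS3, ANGPTL4 and WFDC21P an annotated exon of another gene lies on the opposite strand, and the use of strand in counting is not given in the sources used here.

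Among the leading decreases were matrix, junction and membrane-lipid genes. COL6A3, a chain of the microfibrillar collagen VI (chr2:237324003-237414375), had 116, 42 and 10 counts, a log2 fold change of -3.33 (95% interval -4.43 to -2.40) and -2.89 with the trend removed. COL5A1, the collagen V chain that controls fibril width (chr9:134641774-134844843), had 658, 392 and 97 counts and fell by 2.56. In both collagen genes the Rg3 library lay between the others.

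PIK3C2A, a class II phosphoinositide 3-kinase of clathrin-coated pits and endosomes (chr11:17077730-17207983), had 198, 516 and 22 counts, with a log2 fold change of -2.96 (-3.67 to -2.33) and -2.16 with the trend removed. VPS13C (207, 534 and 27 counts) and VPS13A (120, 306 and 18), bridge-like proteins that carry lipids between membranes, had log2 fold changes of -2.73 and -2.53, and of -1.69 and -1.47 with the trend removed. AKAP9, a scaffold of the Golgi and centrosome, had 101, 217 and 18 counts and log2 fold changes of -2.28 and, with the trend removed, -1.31. For these 4 genes the Rg3 library was the highest and the TAM library the lowest of the 3. Their transcripts have a GC content of at most 38.2%.

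DSP, desmoplakin of the desmosome, fell from 762 counts to 134, with 1044 in the Rg3 library (-2.30, -2.58 to -2.03, and -1.69 with the trend removed). TJP3, a tight-junction scaffold, had 104, 54 and 17 counts and fell by 2.41, and GRHL3, a transcription factor of epithelial barrier genes, had 159, 48 and 26 counts and fell by 2.41. Both have a trend-removed value that is further from 0 (-2.81 and -2.63). NFATC2, a calcineurin-dependent transcription factor, had 145, 85 and 26 counts and fell by 2.27. The set was completed by HIVEP1 (-2.71), ATP8B1 (-2.47), a phospholipid flippase, PTPRG (-2.46), a receptor phosphatase, the noncoding LINC00641 (-2.74) and TRND (-2.89), the mitochondrial aspartate tRNA. Among these decreases, an annotated exon of another gene lies on the opposite strand for VPS13C, VPS13A, ATP8B1 and PTPRG. PIK3C2A and HIVEP1 overlap an exon of another gene on the same strand.

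**Figure D2:**
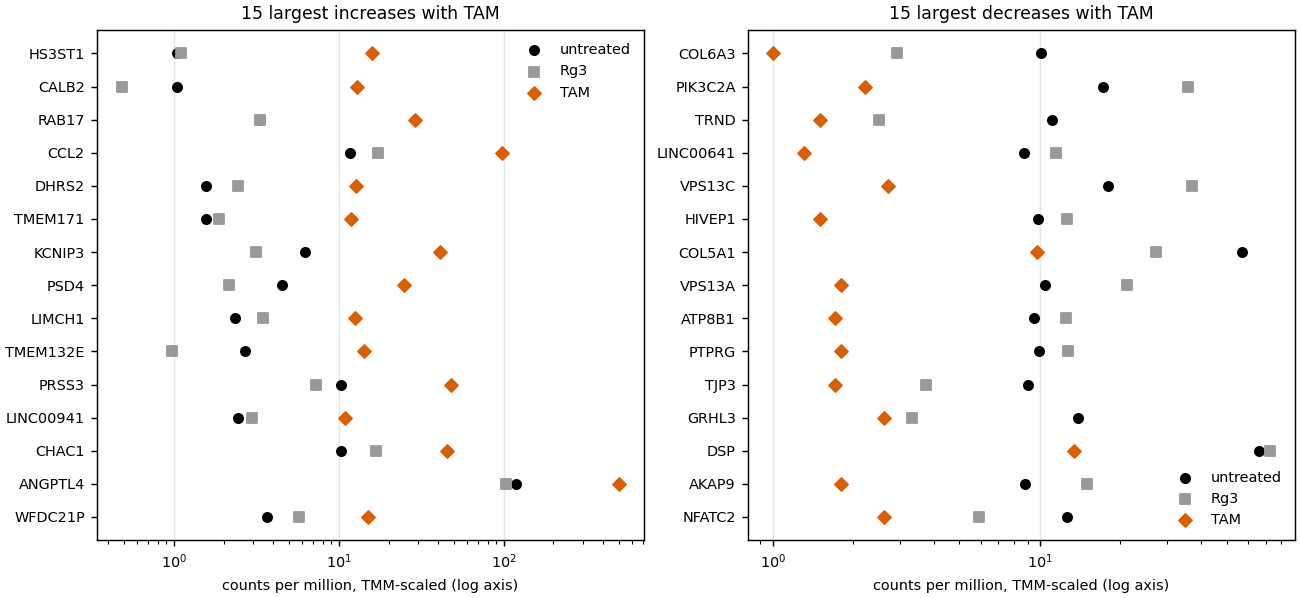
TMM-scaled CPM (log axis) of the 15 largest increases and the 15 largest decreases with TAM, in the untreated (black circles), Rg3 (grey squares) and TAM (orange diamonds) libraries, 1 library each and so with no error bars. The TAM library is the highest for every gene on the left and the lowest for every gene on the right, where the genes were chosen for TAM against untreated alone, and the Rg3 library is above the untreated one for PIK3C2A, VPS13A and VPS13C and below it for COL6A3, COL5A1 and GRHL3.

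The genes were further read in 63 lists of pathways, complexes and families. A list is described by how many of its compared members were called and by its median log2 fold change, to be read against 14.4% higher, 19.0% lower and a median of -0.02 over all genes. The shares over all genes were 9.74% higher and 13.3% lower with the trend removed, and 7.31% and 27.5% under library totals. Collagens had the lowest median (-1.02) and clustered histone genes the highest (0.82). With the trend removed the medians were -0.98 and 0.58, against -0.03 over all genes.

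**Figure D3:**
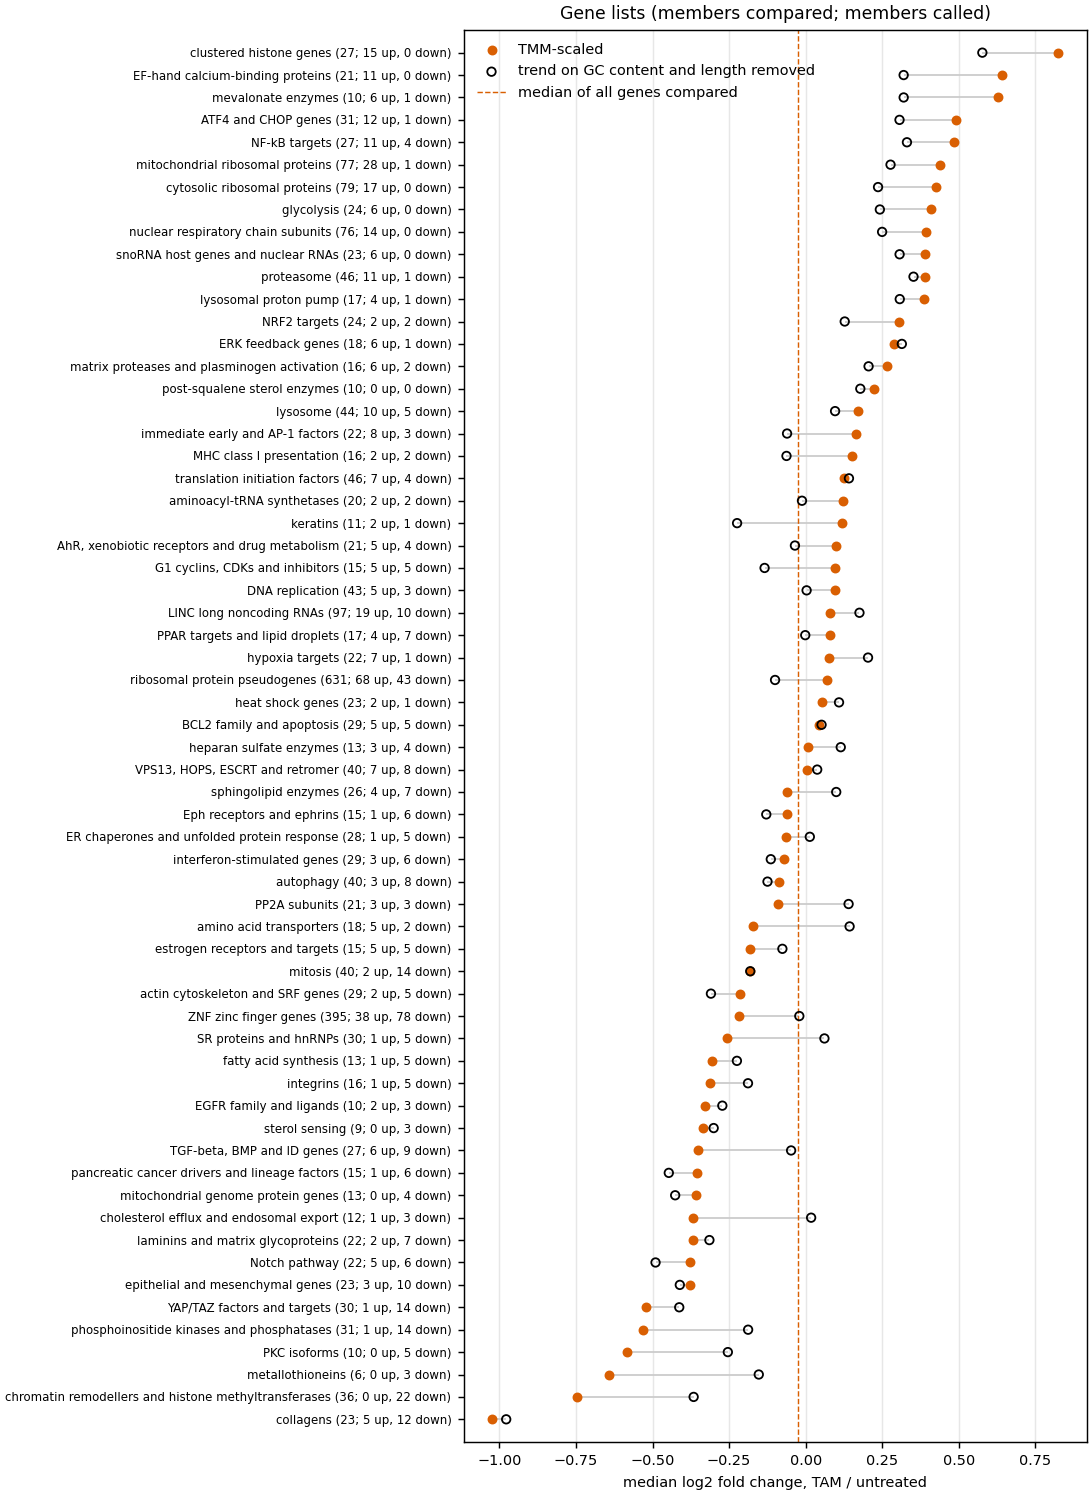
Median log2 fold change (TAM over untreated) of 62 of the 63 gene lists, as TMM-scaled (filled orange) and after removal of the GC and length trend (open), with the number of members compared and called in brackets. The dashed line marks the median of all genes compared (-0.02), and collagens (-1.02) and clustered histone genes (0.82) lie at the ends.

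Lipid genes did not move as one group. Of 10 mevalonate enzymes, which carry acetyl units to squalene, 6 rose and 1 fell (median 0.63). ACAT2, acetyl-CoA acetyltransferase, had 849, 4919 and 1581 counts and rose by 1.10, and MVD had 503, 2664 and 881 counts and rose by 1.01. HMGCS1, HMG-CoA synthase, had 291, 3776 and 164 counts and fell by 0.62. With the trend removed only ACAT2 was still called (0.99), and the list median was 0.32. Reads of ACAT2 overlap exons of SOD2 and TCP1 on the other strand. None of the 10 post-squalene enzymes was called, and EBP, the isomerase that tamoxifen binds, had 1087, 3121 and 1365 counts and a value of 0.53. After TMM scaling, the Rg3 library was above the TAM library for ACAT2, MVD, HMGCS1 and EBP. It was below the TAM library for PMVK (1479, 1442 and 2241 counts) and TM7SF2 (463, 701 and 580). TM7SF2 had 48.7 CPM with Rg3 and 58.3 with TAM.

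SREBF1, which encodes the transcription factor of fatty acid synthesis (chr17:17810399-17837002), fell from 3722 counts to 701, with 2444 in the Rg3 library. The log2 fold change was -2.20 (95% interval -2.32 to -2.09) and -2.46 with the trend removed. An exon of RAI1 lies on the strand opposite SREBF1. SREBF1 belongs to a list of 9 sterol sensing genes of which 3 fell and none rose (median -0.33, and -0.30 with the trend removed). The others that fell were MYLIP, a ubiquitin ligase of lipoprotein uptake, with 93, 66 and 31 counts (-1.38), and STARD4, a sterol carrier, with 45, 371 and 14 (-1.48). Of 12 genes of cholesterol efflux and endosomal export, 3 fell and 1 rose (median -0.37), and 3 fell with the trend removed, when the median was 0.02. ABCA1, the pump that loads cholesterol onto apolipoproteins, had 60, 10 and 5 counts and fell by 3.38 (-5.05 to -2.08). NR1H2, which encodes a liver X receptor, had 851, 666 and 1146 counts and rose by 0.64, a call lost with the trend removed (0.17).

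Of 13 fatty acid synthesis genes, 5 fell and 1 rose (median -0.31), and 4 remained lower with the trend removed. These 4 were SCD, the delta-9 desaturase, with 10093, 44377 and 3112 counts (-1.49), ACACA, acetyl-CoA carboxylase, with 1060, 1919 and 315 (-1.54), FASN, fatty acid synthase, with 5808, 14977 and 2429 (-1.05), and ELOVL5, an elongase, with 1475, 2888 and 653 (-0.97). In all 4 the TAM library was the lowest and the Rg3 library the highest. Acyl-CoA synthetases, which activate fatty acids, were lower too, with ACSL1 (111, 195 and 24 counts) at -2.00, ACSL3 at -1.40 and ACSL4 at -1.38. They belong to a list of 17 PPAR targets and lipid droplet genes of which 7 fell and 4 rose (median 0.08). That list also holds ANGPTL4, so that its members moved both ways.

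Letters of the sterol regulatory element (TCACNCCA, either strand) were looked for in 300-base RefSeq promoters, from 250 bases before the start to 50 after it (GRCh38.p14). They occur in 3.93% of 27305 promoters. They were found in 1 of 12 promoters of the fatty acid list, that of MID1IP1, in 1 of 6 of the mevalonate list and in 1 of 9 of the post-squalene list. A match is a description of the letters in this window and no more.

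Endosomal and lysosomal genes showed small changes with a few large ones. Of 44 lysosomal genes, 10 rose and 5 fell (median 0.17), and 3 and 3 with the trend removed. CTSH, a cathepsin, had 284, 225 and 94 counts and fell by 1.39. LAMP2, a lysosomal membrane protein, had 806, 1894 and 350 counts and fell by 1.00, a call lost with the trend removed (-0.54). TFEB, the transcription factor of lysosomal genes, had 85, 63 and 142 counts and rose by 0.95, also lost with the trend removed (0.55). Of 17 proton pump subunits, which acidify the lysosome, 4 rose and 1 fell (median 0.39).

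Autophagy genes were read in a list of 40, of which 8 fell and 3 rose (median -0.09). With the trend removed 8 were lower and 1 higher. ATG2B, a lipid transfer protein of the forming autophagosome, had 41, 105 and 6 counts and fell by 2.57. RB1CC1 (-1.74) and ULK2 (-1.38), parts of the initiating kinase complex, had 150, 350 and 39 counts and 291, 561 and 97 counts. SQSTM1, the cargo receptor p62, had 10375, 15781 and 13176 counts and a value of 0.55, not called. Of 31 phosphoinositide kinases and phosphatases, 14 fell and 1 rose (median -0.53), and 7 fell with the trend removed. Besides PIK3C2A they include PIKFYVE, the kinase that makes the endosomal lipid PI(3,5)P2, with 385, 1029 and 77 counts (-2.12, and -1.30 with the trend removed), and OCRL, a phosphatase, with 588, 900 and 210 (-1.28).

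Stress genes of the ATF4 and CHOP group, which are switched on when phosphorylated eIF2 slows translation, were higher in 12 of 31 and lower in 1 (median 0.49). With the trend removed 8 rose and none fell (median 0.31), and under library totals 9 rose and 1 fell. CHAC1 led them, followed by STC2, a secreted glycoprotein, with 3304, 3203 and 7351 counts (1.36, and 1.46 with the trend removed) and DDIT4, an inhibitor of mTORC1, with 1144, 994 and 2468 (1.32). PHGDH, the first enzyme of serine synthesis, rose by 1.05 and SESN2, a leucine sensor, by 1.01. TRIB3, a pseudokinase induced by ATF4, had 437, 852 and 742 counts and rose by 0.97, a call lost with the trend removed (0.51). Several targets of the same factor were within 1.5-fold, among them ASNS (607, 1906 and 749 counts, 0.51) and ATF3 (34, 91 and 34, 0.21), and 82.0% of the 50-base stretches of ASNS recur in an overlapping gene.

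The composite letters bound by ATF4 and C/EBP factors (TGATGNAA, either strand) occur in 3.67% of all promoters and in 4 of the 25 promoters found for this list, those of ATF3, ASNS, CHAC1 and SLC3A2. In the 250 bases before the start of CHAC1 (chr15:40953221-40953470, plus strand) 1 match, in capitals, begins 209 bases upstream and reads on the minus strand. The sequence is shown because CHAC1 led the list.
CHAC1 promoter: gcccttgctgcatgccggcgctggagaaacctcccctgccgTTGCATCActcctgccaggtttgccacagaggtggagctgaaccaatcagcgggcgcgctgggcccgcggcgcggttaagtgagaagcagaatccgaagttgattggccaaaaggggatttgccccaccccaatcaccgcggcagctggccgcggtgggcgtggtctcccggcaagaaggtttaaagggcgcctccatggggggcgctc

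Other stress programmes had few calls. Of 28 ER chaperones and unfolded protein response genes, 5 fell and 1 rose (median -0.06), whereas 1 fell and 2 rose with the trend removed (median 0.01). XBP1, the transcription factor activated by IRE1, had 327, 546 and 497 counts and rose by 0.81. HSP90B1, the ER form of HSP90, had 2760, 4987 and 1146 counts and fell by 1.06. Of 23 heat shock genes 2 rose and 1 fell, and HSPA8, the constitutive HSP70, had 20774, 33106 and 28722 counts and rose by 0.67, a call lost under library totals. Of 24 NRF2 targets 2 rose and 2 fell, with OSGIN1 at 23, 58 and 75 counts (1.91). The metallothionein MT1A, which binds zinc and copper, had 184, 95 and 51 counts and fell by 1.64, while MT2A had 3965, 3199 and 4371 counts (0.35, not called).

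Inflammatory and immediate early genes were partly higher. Of 27 NF-kB targets, 11 rose and 4 fell (median 0.48), and 11 and 3 with the trend removed (median 0.33). Next to CCL2 stood CCL20, a chemokine of dendritic and T cells, with 11, 70 and 31 counts (1.70), CXCL1, a neutrophil chemokine, with 128, 133 and 267 (1.27), and PLAU, urokinase, with 4120, 3511 and 7627 (1.09). NFKBIA, the inhibitor IkB-alpha, had 339, 410 and 766 counts and rose by 1.38 (1.20 to 1.57). REL, a subunit of the factor, had 68, 97 and 10 counts and fell by 2.56, though 50.6% of its 50-base stretches recur in other genes, and BIRC3, an inhibitor of apoptosis, had 213, 508 and 63 and fell by 1.55.

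The NF-kB consensus motif (either strand) occurs in 0.579% of all promoters and in 7 of the 22 found for this list, those of NFKB1, REL, NFKBIA, TNFAIP3, CXCL1, CXCL2 and CXCL3. These genes were listed as NF-kB targets, so the motif is part of what they are known for, and of the 7 genes REL and TNFAIP3 were lower and NFKB1 was within 1.5-fold. The 250 bases before the start of NFKBIA (chr14:35404750-35404999, minus strand) are shown with the match, 81 bases upstream on the other strand, in capitals.
NFKBIA promoter: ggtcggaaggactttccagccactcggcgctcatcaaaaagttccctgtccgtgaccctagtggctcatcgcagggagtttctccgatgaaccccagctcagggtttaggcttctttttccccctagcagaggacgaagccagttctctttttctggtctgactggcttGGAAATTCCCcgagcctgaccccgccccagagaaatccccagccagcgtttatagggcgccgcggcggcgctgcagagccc

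Among 22 immediate early and AP-1 factors, 8 rose and 3 fell (median 0.16), and 6 and 5 with the trend removed (median -0.06). JUN had 824, 754 and 1620 counts and rose by 1.18, JUNB had 176, 177 and 345 and rose by 1.18, and FOS had 14, 13 and 33 and rose by 1.44. For all 3 the unscaled counts of the untreated and Rg3 libraries were alike, though the Rg3 library held more counts in all. NR4A1, an orphan nuclear receptor, had 94, 32 and 39 counts and fell by 1.06. ERK feedback genes, which damp the MAP kinase pathway, were higher in 6 of 18 and lower in 1, with SPRY4 at 445, 849 and 688 counts (0.83) and SPRY1 at 106, 185 and 48 (-0.94). The AP-1 letters (TGANTCA, either strand) occur in 7.76% of all promoters. They were found in 1 of 18 promoters of the immediate early list and in 1 of 11 of the ERK feedback list.

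No PKC isoform was higher. Of 10 kinases of the PKC and PKD families, 5 fell (median -0.58), and 3 with the trend removed (median -0.25). PRKCD, an isoform that needs diacylglycerol but not calcium, had 472, 371 and 258 counts and fell by 0.67, and by 1.01 with the trend removed. PRKCH had 31, 50 and 8 counts and fell by 1.75. PRKCA, the isoform of the list with the most counts, had 1947, 2225 and 1075 and fell by 0.65, a call lost with the trend removed (-0.10). These are transcript levels and say nothing of kinase activity.

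Estrogen receptor transcripts were at or near 0 in these cells. ESR1 and PGR, the estrogen receptor alpha and progesterone receptor genes, had 0 counts in all libraries, and ESR2 had 1, 0 and 2 counts. The floor of 3 counts stands for 0.265 CPM of the library total, without TMM scaling, in the untreated and TAM libraries. GPER1, the G protein-coupled estrogen receptor, had 16, 13 and 86 counts and rose by 2.63 (95% interval 1.85 to 3.50), and by 2.22 with the trend removed. Its unscaled counts were alike in the untreated library and the larger Rg3 library. Of the 15 receptors, cofactors and targets compared, 5 rose and 5 fell. NCOA2 (-1.61) and NCOR1 (-1.20), a coactivator and a corepressor of nuclear receptors with long transcripts, were lower, the second not with the trend removed (-0.45).

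Drug handling was mixed. Of 21 genes of the aryl hydrocarbon receptor (AhR), xenobiotic receptors and drug metabolism, 5 rose and 4 fell (median 0.10). TIPARP, a feedback inhibitor of AhR, had 133, 328 and 205 counts and rose by 0.83, while CYP1A1, the best-known AhR target, had 4, 10 and 21 counts, a log2 fold change of 2.60 with a lower interval bound of 1.03. CYP1A1 has too few reads for the naming rule and was chosen after its values were seen. ABCC1, the multidrug export pump MRP1, fell from 13179 counts to 5131, with 7203 in the Rg3 library, a log2 fold change of -1.15 (-1.20 to -1.11) and -1.04 with the trend removed. The AhR letters (TGCGTG, either strand) occur in 9.44% of all promoters and in 1 of the 15 promoters found for this list.

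Matrix genes included the list with the lowest median, the collagens. Of the 44 listed collagen genes, 23 were compared, of which 12 fell and 5 rose, the same numbers as with the trend removed, when COL16A1 was lower and COL12A1 was not. The lower ones include fibrillar and microfibrillar chains (COL1A1, COL5A1, COL5A2, COL11A1, COL6A1, COL6A2, COL6A3) and the basement membrane chains COL4A1, COL4A2, COL4A5 and COL4A6. COL1A1, the main chain of type I collagen, had 1853, 1005 and 734 counts and fell by 1.13, and COL11A1 had 564, 612 and 177 counts and fell by 1.47. COL4A2 had 33, 35 and 5 counts and fell by 2.52 (-4.23 to -1.15), a wide interval at this depth. COL13A1, a transmembrane collagen, was 1 of the 5 that rose, with 186, 55 and 507 counts (1.65, 1.41 to 1.90). The largest value in the list, that of a gene not named here, was 1.79. COL18A1, the collagen gene with the most counts (9423, 6327 and 7552), had a value of -0.11.

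Among 22 laminins and matrix glycoproteins, 7 fell and 2 rose (median -0.37), and 9 and 3 with the trend removed. LAMB1, a laminin chain, had 849, 1125 and 244 counts and fell by 1.59, NID1, which links laminin to collagen IV, had 1733, 2706 and 528 and fell by 1.51, and EFEMP1, a fibulin, had 157, 169 and 36 and fell by 1.92. LAMB3, a laminin chain of epithelia, rose from 62 counts to 152, with 37 in the Rg3 library (95% interval 1.06 to 1.95). FN1, fibronectin, had 10, 7 and 33 counts (1.93). Integrins, the receptors of these proteins, were lower in 5 of 16 and higher in 1, with ITGAV at 1178, 2393 and 352 counts (-1.54). Matrix proteases were higher in 6 of 16 and lower in 2, against 5 and 3 with the trend removed and 4 and 6 under library totals. Library totals lower every log2 fold change by 0.21, and over all genes 7.31% were then higher and 27.5% lower. They were led by MMP1, interstitial collagenase, with 8, 16 and 47 counts (2.76, 1.67 to 4.05), while MMP15 had 336, 369 and 100 and fell by 1.54.

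Of 23 epithelial and mesenchymal genes, 10 fell and 3 rose (median -0.38), and 8 and 3 with the trend removed. CDH1, E-cadherin, had 76, 39 and 5 counts, a log2 fold change of -3.72 (95% interval -5.38 to -2.43) and -3.54 with the trend removed, and CDH3, P-cadherin, had 54, 19 and 12 counts and fell by 1.96. The mesenchymal repressor ZEB1 was lower as well (127, 225 and 38 counts, -1.53), and VIM was within 1.5-fold (-0.19). Mesenchymal genes did not all go down, since the largest value of the list was 1.93, that given above for FN1. Keratins were called in 3 of 11 (1 higher and 3 lower with the trend removed), with KRT19 lower and KRT7 (248, 93 and 345 counts, 0.68) and KRT15 (33, 41 and 57, 0.99) higher. KRT7 was no longer called with the trend removed (0.14). Of 29 actin cytoskeleton and SRF genes 5 fell and 2 rose (median -0.22), with FLNC at 59, 41 and 13 counts (-1.98), VCL, vinculin, at 4730, 5290 and 1726 (-1.25) and ACTB at 84159, 57505 and 73488 (0.01).

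YAP and TAZ are co-activators that act through TEAD factors and are held in check by the LATS kinases. Of 30 of their factors and targets, 14 fell and 1 rose (median -0.52), and 11 and 1 with the trend removed (median -0.41). CTGF, a classical target that encodes a matricellular protein, had 1654, 1807 and 588 counts and fell by 1.29, and by 1.54 with the trend removed. AMOTL2, an angiomotin that binds YAP, had 1963, 1916 and 543 counts and fell by 1.65. LATS1 (260, 421 and 68 counts, -1.73), LATS2 (189, 184 and 63, -1.38) and TEAD1 (551, 1133 and 162, -1.56) were lower too. The genes called lower thus include kinases, factors and targets. CYR61, another target, had 9421, 7823 and 6121 counts and a value of -0.42, and -0.64 with the trend removed, where it was called.

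The TEAD letters (GGAATG, either strand) occur in 3836 of 27305 promoters and in 9 of the 24 promoters found for this list. CTGF, listed in RefSeq under its newer symbol, holds 3 of them, 95 to 169 bases upstream on the coding strand (chr6:131951373-131951622, minus strand). They are in capitals in the 250 bases before its start.
CTGF promoter: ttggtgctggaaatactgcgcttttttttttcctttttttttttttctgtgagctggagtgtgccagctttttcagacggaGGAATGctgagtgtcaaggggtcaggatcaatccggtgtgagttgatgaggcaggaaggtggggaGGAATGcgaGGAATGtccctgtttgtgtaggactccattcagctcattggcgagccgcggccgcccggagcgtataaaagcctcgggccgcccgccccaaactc

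Other signalling families had members on both sides. Of 22 Notch pathway genes, 5 rose and 6 fell (median -0.38), and 5 rose and 11 fell with the trend removed (median -0.49). The target genes HES1 (175, 170 and 370 counts, 1.29) and HEY1 (38, 46 and 98, 1.57), which encode repressors, rose, while the receptor NOTCH2 (2026, 2845 and 758, -1.21) and the coactivator MAML2 (137, 200 and 35, -1.76) fell. Of 27 TGF-beta, BMP and ID genes, 9 fell and 6 rose, and 5 and 6 with the trend removed, with the ligand BMP4 at 170, 140 and 48 counts (-1.62), the receptor TGFBR1 at 313, 405 and 105 (-1.37) and ID2, an inhibitor of helix-loop-helix factors, at 195, 369 and 471 (1.48). HBEGF, a ligand of EGFR, had 52, 80 and 124 counts and rose by 1.46, and EGFR itself had 1630, 1845 and 639 and fell by 1.14, a call lost with the trend removed (-0.52). Of 15 Eph receptors and ephrins, 6 fell and 1 rose, and 6 and 1 with the trend removed, with EFNB2 at 65, 100 and 16 counts (-1.82). Of 15 pancreatic cancer drivers and lineage factors, 6 fell and 1 rose (median -0.35), and 4 and 1 with the trend removed (median -0.45). The 1 that rose was GATA4, a lineage transcription factor, with 397, 357 and 714 counts (1.05), and those that fell include ELF3, an epithelial transcription factor, with 451, 368 and 235 (-0.73), and the demethylase gene KDM6A with 120, 270 and 51 (-1.03, and -0.53 with the trend removed, not called).

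Calcium-binding EF-hand genes were higher in 11 of 21 and lower in none (median 0.64), and 6 rose with the trend removed (median 0.32). S100A16 had 1656, 1072 and 4266 counts and rose by 1.57 (1.49 to 1.65), and S100A3 had 225, 192 and 455 and rose by 1.22. S100A6, the list's gene with the most counts, had 21921, 19385 and 32598 and rose by 0.78, a call lost with the trend removed (0.31) and under library totals.

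Cell cycle genes were read by phase. Of 43 DNA replication genes 5 rose and 3 fell (median 0.09), and 1 and 1 with the trend removed. Of 40 mitosis genes 14 fell and 2 rose (median -0.18), and 8 and 1 with the trend removed. CENPF, a kinetochore protein, had 1497, 2208 and 310 counts and fell by 2.07, and by 1.22 with the trend removed. MKI67, the proliferation antigen Ki-67, had 3641, 5377 and 1180 counts and fell by 1.42, and by 0.71, and ASPM and KIF11, which act at the spindle, fell by 1.78 and 1.39. CDC25B, the phosphatase that starts mitosis and the list's gene with the most counts (5699, 5255 and 6250), had a value of 0.34.

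Of 15 G1 cyclins, kinases and inhibitors, 5 rose and 5 fell, and 3 and 3 with the trend removed. The inhibitor CDKN1A (p21) had 948, 1377 and 1730 counts and rose by 1.07, and CDK4 had 3233, 3799 and 5873 and rose by 1.07, both also with the trend removed (0.64 and 0.72). RB1, the retinoblastoma gene, had 160, 333 and 47 counts and fell by 1.56. BAK1, a pore-forming BCL2 family member, had 883, 1094 and 1773 counts and rose by 1.21, with 12.8% of its stretches shared with a pseudogene, within a list of 29 of which 5 rose and 5 fell.

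Clustered histone genes, whose transcripts are short and mostly lack a poly(A) tail, were called higher in 15 of 27 and lower in none, and in 9 and 1 with the trend removed. HIST1H1C, a linker histone gene, had 467, 391 and 1252 counts and rose by 1.63 (1.47 to 1.79). HIST1H2BJ had 18, 34 and 79 counts and rose by 2.34. A further 62 of the 89 histone genes in the table had fewer than 10 counts in both libraries.

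Lists of protein synthesis differed in their share of higher calls. Of 79 cytosolic ribosomal protein genes 17 rose and none fell (median 0.43), and of 77 mitochondrial ribosomal protein genes 28 rose and 1 fell (median 0.44). With the trend removed 11 and 14 rose, with medians of 0.24 and 0.28. The ribosomal gene with the most counts, RPS16 (188583, 169335 and 159884), had a value of -0.03. Of 46 proteasome genes 11 rose and 1 fell (median 0.39), and 13 and 1 with the trend removed, with PSMB5, the chymotrypsin-like subunit, at 3559, 2951 and 6200 counts (1.01). Under library totals the medians of these lists were lower by 0.21, and the calls were 4 higher and none lower for cytosolic ribosomal proteins, 7 and 3 for mitochondrial ones and 5 and 2 for the proteasome. Of 46 translation initiation factors 7 rose and 4 fell (median 0.12), with 2 and 9 under library totals, and of 20 aminoacyl-tRNA synthetases 2 rose and 2 fell. Over all genes 7.31% were higher and 27.5% lower under library totals.

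Of 24 glycolytic genes 6 rose and none fell (median 0.41), and 6 rose with the trend removed. PKM, pyruvate kinase, had 51981, 40676 and 94185 counts and rose by 1.06 (1.05 to 1.08), and by 0.82 with the trend removed. ALDOC, an aldolase, had 153, 435 and 386 counts and rose by 1.54, and PFKFB4, which makes the activator of phosphofructokinase, had 639, 1002 and 1217 and rose by 1.14. Of 22 hypoxia targets 7 rose and 1 fell, with EGLN3, a prolyl hydroxylase, at 21, 33 and 51 counts (1.49), whereas HIF1A, the factor itself, had 256, 744 and 119 and fell by 0.90 (-0.43 with the trend removed, not called).

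The respiratory chain is built from nuclear and mitochondrial genes. Of 76 nuclear genes for its subunits 14 rose and none fell (median 0.39), and the share that rose was near that over all genes. With the trend removed 13 rose and none fell (median 0.25), against 9.74% higher and 13.3% lower over all genes. Under library totals 5 rose and 1 fell, against 7.31% and 27.5%. NDUFA3 had 706, 721 and 1275 counts (1.06) and NDUFS6 had 1809, 1752 and 3231 (1.04). Of the 13 protein genes of the mitochondrial genome none rose and 4 fell (median -0.36, and -0.43 with the trend removed). The difference between these lists was not tested. The 4 were COX3 (31848, 24964 and 12426 counts, -1.15), ATP8 (2311, 2425 and 1098, -0.87), ATP6 (16067, 15912 and 8051, -0.79) and CYTB (22267, 18051 and 11351, -0.77). The other 9 had values between -0.51 (ND3) and 0.31 (ND6, the one on the other strand), and COX1 had 83903, 52154 and 58518 counts (-0.31). ATP8, ATP6 and COX3 lie next to each other in the mitochondrial genome, and whether position bears on these values was not tested. Nuclear copies of mitochondrial sequence share 30.6% of the 50-base stretches of COX3, 46.7% of those of ATP6 and 49.5% of those of COX1. Of 13 mitochondrial tRNA genes compared, 7 fell and none rose.

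Genes of large chromatin proteins were called lower or not at all. Of 36 chromatin remodellers and histone methyltransferases 22 fell and none rose (median -0.75), and 11 fell with the trend removed (median -0.37). KMT2A, a histone H3 lysine 4 methyltransferase, had 1215, 1831 and 302 counts and fell by 1.80, and by 0.94 with the trend removed, and 21.5% of its stretches recur in an overlapping gene. SETD2, the lysine 36 methyltransferase, had 583, 825 and 149 counts and fell by 1.76, and CHD9 had 115, 209 and 21 and fell by 2.25. In each of these the Rg3 library was the highest. Removing the trend took away 11 of the 22 calls and added none.

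**Figure D4:**
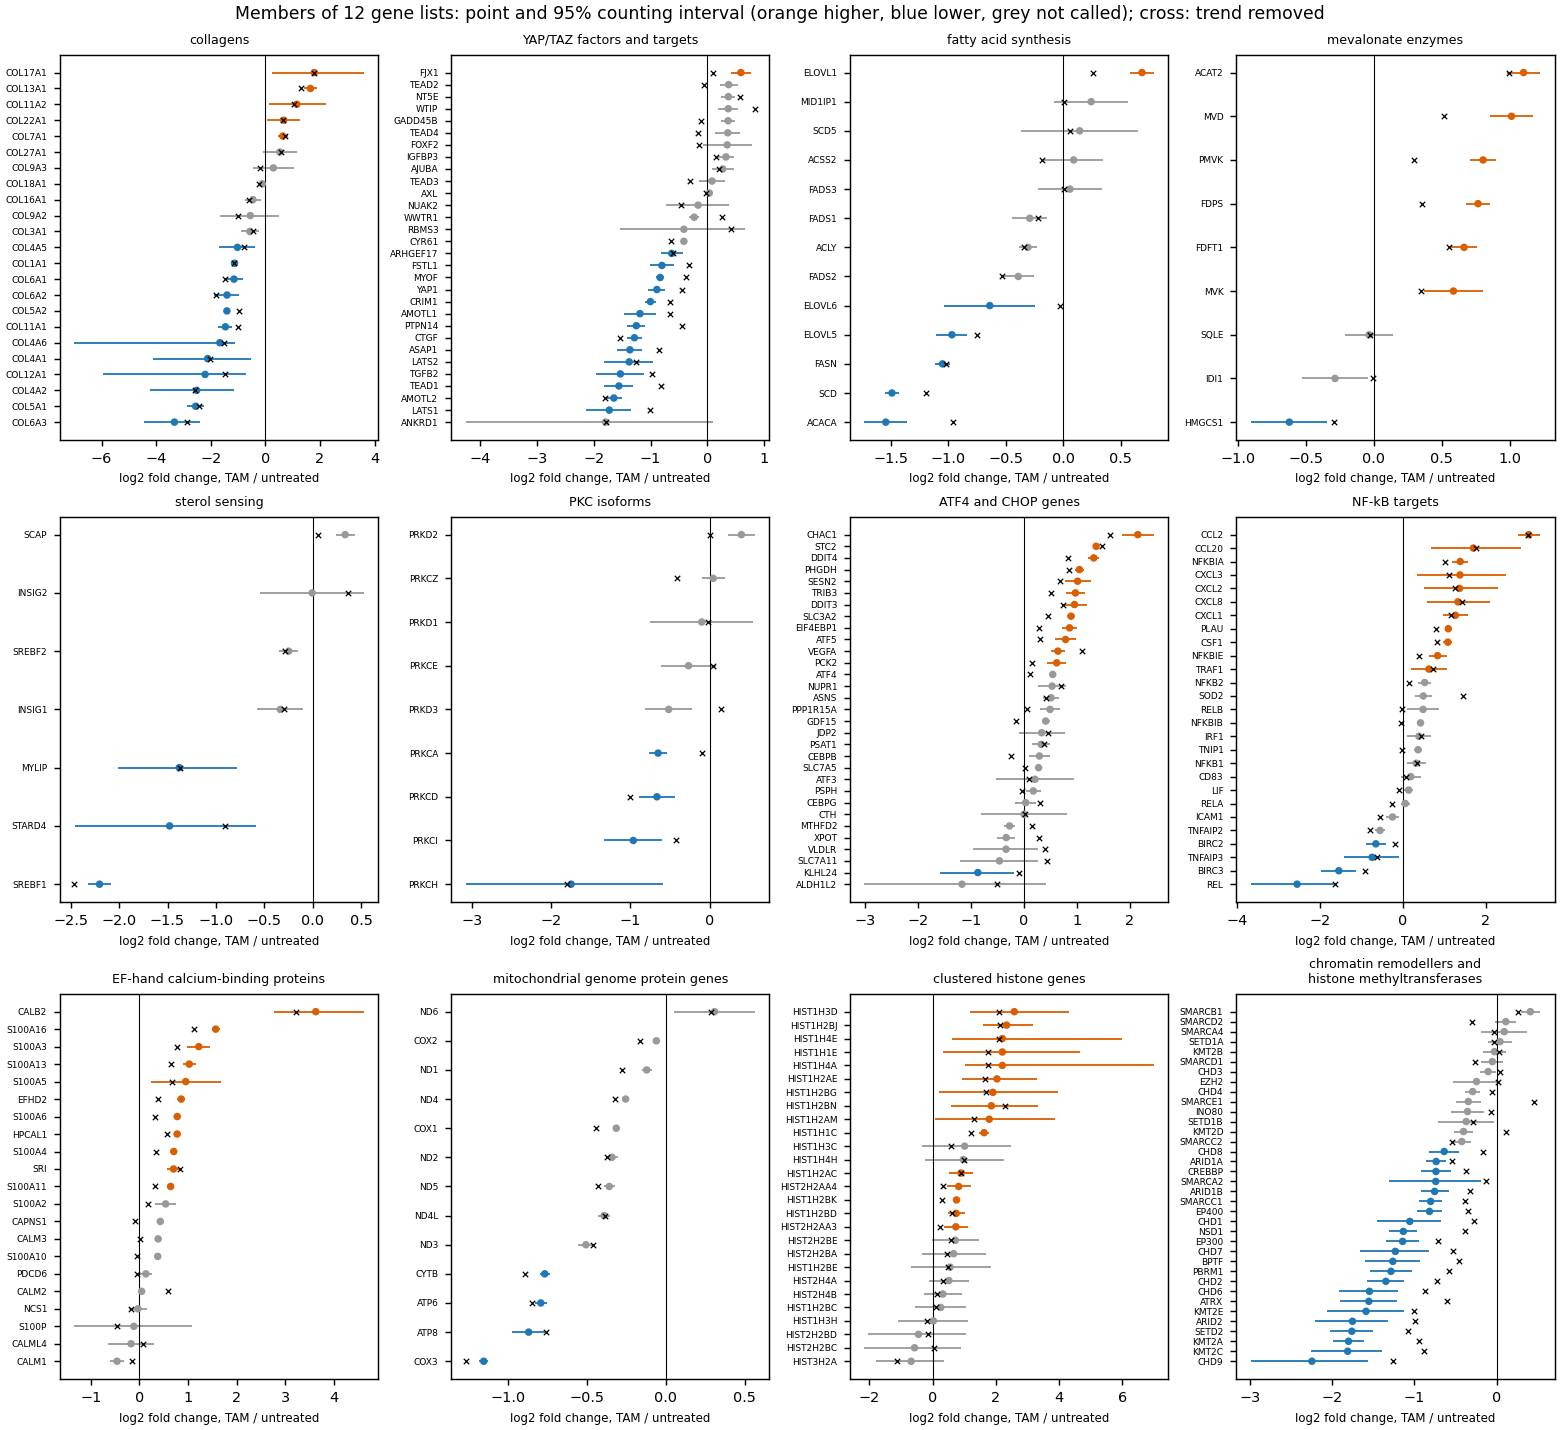
Log2 fold change (TAM over untreated) of members of 12 gene lists, with its 95% counting interval drawn up to 7 either way (orange called higher, blue called lower, grey not called) and the value after removal of the GC and length trend (cross). Most collagens stay low by both readings, whereas the crosses of the chromatin genes lie closer to 0 than their points.

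Among noncoding transcripts, 60 of 174 antisense RNAs rose and 11 fell (median 0.50), and 44 and 11 with the trend removed (median 0.30). Long intergenic RNAs rose in 30 of 133 and fell in 12, whereas 1810 of 12299 protein-coding genes rose and 2674 fell. Nuclear RNAs and snoRNA host genes rose in 6 of 23 and fell in none, with MALAT1 at 238, 352 and 378 counts (0.87, and 1.65 with the trend removed) and NEAT1 at 1246, 1071 and 1416 (0.39, and 1.44 with the trend removed, where it was called). Because the use of strand in counting is not given in the sources used here, reads of an antisense RNA and of its partner cannot be told apart.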

How the data were processed

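RNA was measured by RNA-seq on an Ion Proton sequencer in 3 PANC-1 libraries, 1 each for untreated, Rg3 and TAM cells, grouped by their labels. The authors aligned reads with TopHat, checked them with FAST-QC, and deposited raw counts per gene symbol; the labels name the build GRCh38. The counting tool, annotation and strand setting are not given in the sources used here. PCR reads without molecular identifiers are not independent molecules.

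From the deposited counts, TMM factors (1.02, 1.12 and 0.879 for untreated, Rg3 and TAM) were computed over the whole table with edgeR 4.0.16 in R 4.3.3, and log2 fold changes and exact intervals with Python 3.11.15 and scipy 1.17.1. The study's limma criteria need replicates, so its fold limits were kept with a counting interval. The interval was not adjusted for the number of genes compared, so some calls may be of unchanged genes. The trend was a loess fit (span 0.3) on GC content and length of the longest GENCODE 29 transcript, found for 91.7% of genes compared, 14019 by name and 725 by an older symbol. Shared reads were judged from 50-base stretches that recur in other genes' transcripts. The steps were tested on simulated counts that carried counting error only, which says nothing of spread between cultures.

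Named genes were the 15 largest increases and decreases among called genes with at least 100 counts that kept their call with library totals and with the trend removed and shared at most 10% of their stretches, up to 6 members of each list with at least 30 counts (largest changes and most counts), the gene with the most counts at each end of GC content and length, and cell type markers. ASNS, ATF3, MID1IP1, NFKB1, TNFAIP3, CXCL1, CXCL2, CXCL3, CTGF, CYP1A1, ESR1, ESR2, PGR, ND6, the collagens COL1A1, COL4A1, COL4A5, COL4A6, COL5A2, COL6A1, COL6A2, COL12A1 and COL16A1, and the promoters and stretches shown were added after their values were seen. The comparison and the lists were chosen with earlier results of these data known, so no list was tested. Some genes and 1 list are not reported here, though counts and medians include them. Alternatives were other scalings (DESeq2 1.42.0 among them), count minimums of 1 and 50, stricter call rules and an assumed variation between cultures.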

Additional observations from a re-analysis of the deposited data

How the results depend on the processing

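No result has a replicate check, and the counting intervals leave out the spread between cultures. No paired analysis was possible because every arm held a single library, which also leaves none to omit. Against 2322 genes higher with tamoxifen and 3059 genes lower with tamoxifen, the counts were 1176 higher under library totals, 1436 and 1964 with the trend removed, 1082 and 1393 with the whole interval beyond 1.5-fold, and 746 and 1555 beyond 2-fold. edgeR's exact test, whose spread between cultures was assumed and not measured, called 109 and 365 at a coefficient of variation of 0.2 and 0 and 1 at 0.4. The other scalings and count minimums stayed within 1.5 times. With the median instead of the longest transcript the correlation with length was -0.13 in place of -0.36. Among the genes named by the rule, 30 calls were lost under library totals and 108 with the trend removed, where the log2 fold change of HSPA4L, called lower at -0.59, turned to 0.33. The median of a list crossed a 1.5-fold limit in 7 of 63 lists under library totals and in 6 with the trend removed. The cause of these shifts was not tested.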

Other observations

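Interferon-stimulated genes and MHC class I genes, which make antiviral proteins and present peptides to T cells, were not described above. Of 29 interferon-stimulated genes 6 were lower and 3 higher in the TAM library (median -0.07). The membrane proteins IFITM1 (46, 33 and 11 counts in the untreated, Rg3 and TAM libraries), IFITM2 (257, 210 and 76) and IFITM3 (1620, 969 and 517) were lower by log2 fold changes of -1.86, -1.55 and -1.44, and further from 0 with the trend removed (-2.15, -1.93 and -1.85). These neighbouring genes are near copies that share 42.3%, 15.8% and 20.3% of their 50-base stretches with other genes, so that their reads could be split between them. ISG15, a ubiquitin-like protein, had 1235, 1197 and 993 counts (-0.11, and -0.63 with the trend removed, where it was called). Of 16 genes of MHC class I presentation 2 were higher and 2 lower (median 0.15).

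Splicing factors and sphingolipid enzymes also had members on both sides. Of 30 SR proteins and hnRNPs 5 were lower and 1 higher (median -0.26), and with the trend removed 2 were lower and 6 higher (median 0.06), so that the direction of this list depended on the reading. SPHK1, which makes sphingosine 1-phosphate, had 314, 265 and 603 counts and was higher by 1.15, and UGCG, glucosylceramide synthase, had 132, 314 and 61 counts and was lower by 0.91, a call lost with the trend removed (-0.53). IGLV1-51, an immunoglobulin light chain segment, had 86 counts in the untreated library and 0 in both others. It was the gene with the most reads among 22 that were at 0 in the TAM library, and was chosen after its values were seen.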
